A study of Mus musculus with 9 samples.

Results

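Gene expression in the BNST, the bed nucleus of the stria terminalis, was set against that of the mouse striatum as a whole. The BNST group held 3 arrays. The striatum was taken as the equally weighted mean of 2 groups of 3 arrays each, the NAc (nucleus accumbens, the ventral striatum) and the dStr (dorsal striatum), so that all 9 of the 9 arrays of the series entered the comparison. The arrays were assigned by their titles, and no measured value was used to choose them. Mice were decapitated under brief isoflurane anaesthesia, brains were sliced coronally at 300 µm in ice-cold sucrose solution, and the regions were punched from semi-frozen slices. No treatment or genotype separates the groups, and the sources used here give neither strain nor age nor sex. Each sample started from 10 ng of total RNA, amplified and biotin-labelled by a 2-cycle method, and was read on 1 Affymetrix Mouse430_2 array. The labels call the samples biological replicates without saying whether they came from separate or pooled animals, so the p-values measure the spread between these samples only.

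The striatum is built largely from one class of cell, the medium spiny projection neuron. This GABA-releasing neuron reads dopamine through D1 or D2 receptors coupled to cyclic AMP, and carries DARPP-32, phosphodiesterase 10A and peptides such as enkephalin, dynorphin and substance P. The BNST belongs to the extended amygdala, a chain of limbic nuclei that lies between the amygdala, hypothalamus and septum and is known for its many small groups of peptide neurons, corticotropin-releasing hormone neurons among them, and for its part in stress and anxiety. It also lies along the wall of the lateral ventricle, which is lined by ciliated ependymal cells. A punch holds every cell type of the tissue removed, so that fewer cells of a type and less RNA per cell cannot be told apart in these data.

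Values were probe-set intensities, tested as log2(intensity + 16), and every log2 difference below is BNST minus the mean of the 2 striatal region means on that scale. Folds on this scale understate the differences of genes near 15, the lowest value on every array, at which dim probe sets pile up (the floor). A gene passed where limma's adjusted p, over 14208 genes, was under 0.05. The median intensity of an array lay between 93.9 and 102. BNST 1 was closer to some NAc arrays than to its own region, and it correlated across genes at r = 0.965 with NAc 3 and 0.953 with NAc 2, but at 0.934 with BNST 2 and 0.948 with BNST 3. NAc 1 stood apart from its region as well. It correlated at 0.938 with NAc 2 but at 0.909 with NAc 3, below its 0.919 with BNST 2, 0.924 with BNST 3 and 0.925 with dStr 2. The 6 measured markers of striatal projection neurons summed to 3922 on BNST 1, against 1557 on BNST 2 and 2341 on BNST 3, and to between 6467 and 14850 on the striatal arrays. The 9 measured markers of extended amygdala neurons summed to between 6076 and 7170 on the BNST arrays and between 1147 and 2110 on the striatal arrays. Neither sum overlapped between BNST and striatal arrays. Both marker sets were chosen with earlier results of these data known, so that they are no independent check of the labels.

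BNST differed from the striatum in both directions, with striatal projection neuron genes at the low end and ciliary genes at the high end. Some peptide and patterning genes also stood at the high end, while others were lower in BNST. Of the 14208 genes, 1457 passed (10.3%), of which 475 were higher in BNST (3.34%) and 982 lower (6.91%). A log2 difference of at least 1 was reached by 497 of them (3.5% of all tested), 150 of the higher genes (1.06%) and 347 of the lower ones (2.44%). At an unadjusted p under 0.05 the count was 3372 (23.7%). The median difference over all genes was -0.05. The split depended on the scaling: of the genes that passed, 32.6% were higher in BNST on the deposited scale, 39.7% with each array centred on its median (596 higher, 906 lower) and 49.4% after quantile normalisation (827 higher, 848 lower), with the median of all genes at -0.01 and 0.05. Without BNST 1, 2050 genes passed, without BNST 2, 687, and without BNST 3, 646. Without dStr 3 the count was 965. All 3 BNST arrays lay above all 6 striatal arrays for 626 genes (4.41%) and below all 6 for 904 (6.36%), together 10.8%. This separation held for 380 of the 475 genes called higher (80%) and 617 of the 982 called lower (62.8%). Since the call used the same arrays, these shares are no separate support for it.

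**Figure D1:**
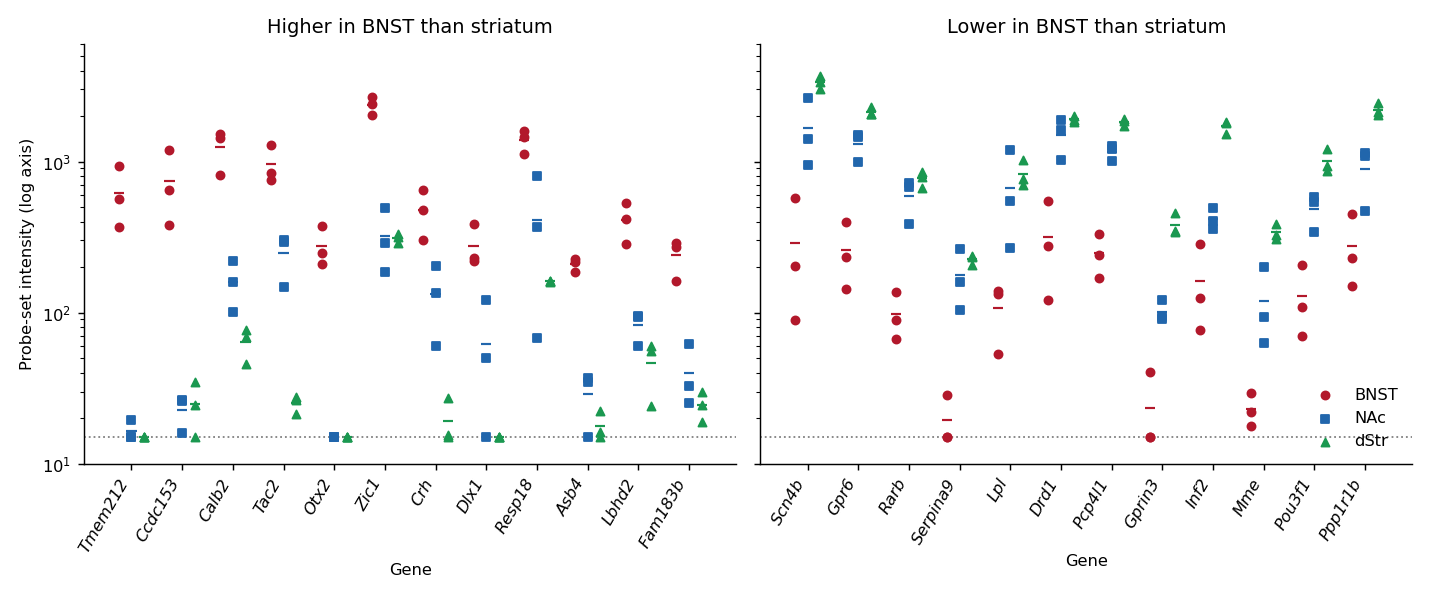
Intensity of 12 genes in each direction, the largest differences among named genes that passed without overlap between BNST and striatal arrays and with a mean above 99.9 in the higher group (left, higher in BNST; right, lower) on the 9 arrays, on a log axis, with 1 point per array, a short line at the mean of the 3 arrays of a region and a dotted line at the array floor of 15. The genes were chosen for the gap between the BNST points (circles) and all 6 striatal points. The NAc points (squares) of Tac2, Crh, Gprin3 and Inf2 lie between BNST and dStr (triangles).

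The genes of medium spiny neurons were low in BNST nearly throughout. Of 33 measured genes of that list, 30 were lower in BNST (6.91% over all genes), 0 were higher, and the median log2 difference was -1.82. Scn4b, an auxiliary subunit of voltage-gated sodium channels, read 578, 89.7 and 202 on the 3 BNST arrays, 2625, 1407 and 948 on the NAc arrays and 3009, 3661 and 3347 on the dStr arrays (log2 difference -3.24, SE 0.46, adjusted p = 0.00186). Its highest BNST value, on BNST 1, was still below the lowest NAc value. Gpr6, a receptor gene of the D2 class of projection neurons, read 400.5, 144 and 232 in BNST, 1498, 1449 and 990.3 in NAc and 2068, 2076 and 2282 in dStr (log2 difference -2.72, SE 0.26, adjusted p = 0.000273). Rarb, the retinoic acid receptor beta, read 137, 67 and 89.5 in BNST, 721, 682 and 383 in NAc and 671, 795 and 851 in dStr (log2 difference -2.62, SE 0.23, adjusted p = 0.000201). For both genes the 3 BNST arrays lay below all 6 striatal arrays. The 3 members that did not pass were Isl1 (-0.15, adjusted p = 0.754), Ebf1 (-0.36, adjusted p = 0.395) and the cannabinoid receptor gene Cnr1 (-0.69, adjusted p = 0.132), of which Isl1 and Ebf1 mark projection neurons of the D1 class during development.

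The genes of the D1 and D2 receptors and of DARPP-32 were lower in BNST, whereas the dopamine receptor gene Drd4 did not pass (-0.18, adjusted p = 0.42). Drd1, the D1 receptor, read 546, 121 and 275 in BNST, 1873, 1622 and 1016 in NAc and 1837, 1992 and 1876 in dStr (log2 difference -2.57, SE 0.36, adjusted p = 0.0017). Drd2, the D2 receptor, read 119.9, 66.4 and 75.3 in BNST, 249.5, 216 and 252 in NAc and 697, 476 and 725 in dStr (log2 difference -2.0002, SE 0.19, adjusted p = 0.000253). Within the striatum, NAc minus dStr was -0.38 for Drd1 (adjusted p = 0.764) and -1.32 for Drd2 (adjusted p = 0.0104). Ppp1r1b, which encodes DARPP-32, the phosphatase inhibitor that dopamine switches on through cyclic AMP, read 451, 149 and 229 in BNST, 470.5, 1095 and 1131 in NAc and 2034, 2121 and 2438 in dStr (log2 difference -2.37, SE 0.34, adjusted p = 0.00186). BNST 1, at 451, and NAc 1, at 470.5, almost met for this gene, whereas the other arrays were far apart. Of the 16 measured monoamine receptor genes, 3 were lower and 1 higher in BNST, beside 6.91% and 3.34% over all genes, and without NAc 1 or NAc 3 the count of higher members was 2. The other lower one was the serotonin receptor gene Htr1b (-1.31, adjusted p = 0.0129), whose call was lost without BNST 2 or BNST 3 (adjusted p up to 0.0781). Another kept probe set of Htr1b had the opposite sign. The higher one was the serotonin receptor gene Htr7, at 236 ± 28.8 in BNST, 133 ± 16.1 in NAc and 103 ± 18.9 in dStr (mean ± SD, n = 3 arrays each; log2 difference 0.92, SE 0.14, adjusted p = 0.00231).

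Cyclic AMP and G protein signalling genes divided into a larger low group and a smaller high group. Of 49 measured, 20 were lower in BNST and 6 higher (6.91% and 3.34% over all genes), with a median of -0.18. Pde10a, the phosphodiesterase that clears cyclic nucleotides in projection neurons, read 1057, 335 and 559.5 in BNST, 3381, 2130 and 1280 in NAc and 4019, 3940 and 4297 in dStr (log2 difference -2.29, SE 0.35, adjusted p = 0.00249). NAc 3, at 1280, was the lowest striatal array for Pde10a and lay just above BNST 1. Rgs9, which speeds the shut-off of G protein signals at dopamine receptors, averaged 361 ± 95.9 in BNST, 898 ± 109 in NAc and 2211 ± 196 in dStr (log2 difference -1.95, SE 0.16, adjusted p = 0.000136). The gamma subunit gene Gng7, a partner of the striatal stimulatory G protein, averaged 612 ± 155, 1997 ± 344 and 2601 ± 281 (log2 difference -1.89, SE 0.18, adjusted p = 0.000253). Its relative Gng2 had the opposite order, at 568 ± 63.3 in BNST, 229 ± 128 in NAc and 89.8 ± 17.2 in dStr (log2 difference 1.94, SE 0.29, adjusted p = 0.00251). Gnas, which encodes the widely used stimulatory alpha subunit, was higher in BNST (log2 difference 1.00, SE 0.16, adjusted p = 0.00289). Without BNST 2 the count of lower members was 13, and without NAc 2, dStr 1 or dStr 3 the count of higher members was 3.

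Among ion channel genes, more passed as lower in BNST than as higher. Of 45 potassium channel genes, 20 were lower and 4 higher (median -0.45, with -0.28 against NAc and -0.53 against dStr). Of 31 sodium, calcium and cation channel genes, 13 were lower and 3 higher (median -0.53, with -0.23 against NAc and -0.68 against dStr). Over all genes 6.91% were lower and 3.34% higher. The counts of lower members depended on which BNST array was left out: they were 22 and 14 without BNST 1, 9 and 4 without BNST 2, and 12 and 4 without BNST 3. Of the potassium channel genes, 2 were higher without BNST 2 and 1 without BNST 3. The potassium channel medians ran from -0.59 to -0.28 over the fits that left out 1 array. Kcnq3, a subunit of the M channel that damps repetitive firing, read 281, 74.2 and 92.9 in BNST, 361, 650.2 and 383 in NAc and 802, 764 and 922 in dStr (log2 difference -2.13, SE 0.34, adjusted p = 0.00306). Its partner Kcnq5 was also lower (log2 difference -1.78, SE 0.30, adjusted p = 0.00464), as were Kcna4 and Kcnd2, subunits of the transient A-type current (-1.83 and -1.32; adjusted p = 0.00145 and 0.000508). In the other direction, Kcnj3, a subunit of the potassium channel that G proteins open, read 267, 219 and 284 in BNST, 69.5, 100.4 and 74.6 in NAc and 71.9, 69.9 and 76.6 in dStr (log2 difference 1.55, SE 0.13, adjusted p = 0.000172). No striatal array reached the lowest BNST value. With a pseudocount of 1, where another probe set stands for the gene, the Kcnj3 call was lost (0.20, adjusted p = 0.56). Among calcium channel genes, the auxiliary subunit Cacna2d3 averaged 463 ± 212 in BNST, 1623 ± 189 in NAc and 2054 ± 190.4 in dStr (log2 difference -2.03, SE 0.22, adjusted p = 0.000489). In contrast, Cacng5, a gamma subunit that also attends AMPA receptors, averaged 654 ± 137 in BNST, 162 ± 27.3 in NAc and 84.8 ± 30.4 in dStr (log2 difference 2.33, SE 0.20, adjusted p = 0.000184). The cation channel gene Trpc4 was higher in BNST as well (log2 difference 2.06, SE 0.20, adjusted p = 0.000288).

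Among fast transmitter receptors, single subunits went in opposite directions. Of 14 measured GABA and glycine receptor genes, 3 were higher and 2 lower in BNST, beside 3.34% and 6.91% over all genes. Gabrd, the delta subunit of extrasynaptic GABA-A receptors, read 198, 91.6 and 154 in BNST, 559, 549 and 376 in NAc and 865, 847 and 1032 in dStr (log2 difference -2.12, SE 0.21, adjusted p = 0.000348). Gabra4, the alpha subunit that pairs with delta in striatum, averaged 334 ± 100.1 in BNST, 772 ± 267 in NAc and 1319 ± 111 in dStr (log2 difference -1.55, SE 0.24, adjusted p = 0.00263). Glra2, a glycine receptor alpha subunit, was higher, at 295 ± 16.3 in BNST, 167 ± 60.3 in NAc and 95.9 ± 16.8 in dStr (log2 difference 1.15, SE 0.19, adjusted p = 0.00381). All 3 BNST arrays lay above all 6 striatal arrays for Glra2, and below all 6 for Gabrd and Gabra4. Without BNST 1, BNST 2, BNST 3 or dStr 3 the count of higher members was 1, and without BNST 1 that of lower members was 5.

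Of 21 measured glutamate receptor genes, 3 were higher and 4 lower, beside 3.34% and 6.91% over all genes. The kainate receptor genes Grik1 and Grik2 went opposite ways. Grik1 read 319, 261 and 248 in BNST, 34.1, 117 and 150 in NAc and 42.6, 29 and 31.6 in dStr (log2 difference 2.01, SE 0.31, adjusted p = 0.00285), with no overlap. Grik2 averaged 226 ± 82.3 in BNST, 449 ± 103 in NAc and 549.5 ± 105 in dStr (log2 difference -1.11, SE 0.22, adjusted p = 0.00953), and this call was lost without BNST 2 or BNST 3 (adjusted p up to 0.0663). Grm4, a metabotropic receptor that restrains transmitter release, was lower in BNST with a small spread, at 194 ± 11.1 against 352 ± 46.4 in NAc and 504 ± 22.4 in dStr (log2 difference -1.05, SE 0.11, adjusted p = 0.000452). Without BNST 2 or BNST 3 the count of lower members was 1.

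Peptide genes held some of the largest positive differences, although only part of the list differed. Of 31 measured neuropeptide and hormone genes, 4 were higher and 4 lower (3.34% and 6.91% over all genes), with a median of 0.09. Tac2, which encodes neurokinin B, read 843, 753 and 1294 in BNST, 147, 302 and 295 in NAc and 27.5, 26.6 and 21.4 in dStr (log2 difference 3.23, SE 0.24, adjusted p = 7.62e-05). The stress peptide gene Crh (corticotropin-releasing hormone) read 648, 476 and 303 in BNST, 59.97, 204 and 135 in NAc and 15.6, 27.1 and 15 in dStr (log2 difference 2.77, SE 0.32, adjusted p = 0.000623). For both genes dStr was near the array floor and NAc lay between, so that the difference was 1.92 against NAc and 4.54 against dStr for Tac2, and 1.79 and 3.76 for Crh. Both differences share the BNST arrays. Pnoc, the precursor of nociceptin, was low in both striatal regions: it read 153, 135 and 172 in BNST, 48.6, 48.9 and 48 in NAc and 46.2, 45.2 and 37.5 in dStr (log2 difference 1.45, SE 0.11, adjusted p = 9.49e-05). The lowest BNST array for Pnoc was above every striatal array by a wide margin. The neurotensin gene Nts passed (1.69, adjusted p = 0.0455) but lost its call without BNST 1, BNST 2, BNST 3, NAc 2, dStr 1 or dStr 3 (adjusted p up to 0.162).

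The 4 lower peptide genes included the classical peptides of projection neurons. Tac1, the substance P precursor, read 1385, 692 and 1564 in BNST, 4965, 3945 and 3470 in NAc and 3898, 4665 and 4020 in dStr (log2 difference -1.84, SE 0.23, adjusted p = 0.00104). Penk, the enkephalin precursor, read 2238, 1316 and 2773 in BNST, 5161, 4088 and 3671 in NAc and 4079, 5205 and 4870 in dStr (log2 difference -1.14, SE 0.22, adjusted p = 0.00815). Both remained among the brighter genes in BNST, although no BNST array reached the lowest striatal array. Pdyn, the dynorphin precursor, parted the striatal regions: it averaged 268 ± 36.4 in BNST and 305 ± 48.8 in dStr but 616 ± 102 in NAc (log2 difference -0.66, SE 0.15, adjusted p = 0.0198). Its difference was -1.15 against NAc (adjusted p = 0.0085) and -0.17 against dStr (adjusted p = 0.556), and the call against both was lost without BNST 2 or dStr 1 (adjusted p up to 0.114) and after quantile normalisation. The count of lower members was 2 without BNST 2. Several peptides known from limbic nuclei did not pass, among them Sst, the somatostatin gene (0.70, adjusted p = 0.0864), and Cartpt, for which NAc was the highest region (1200 ± 186, against 306 ± 111 in BNST and 22.3 ± 8.16 in dStr).

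Machinery for dense-core vesicles, the organelles that store peptides, was higher for 6 of 27 measured genes and lower for 1 (0 lower without BNST 2 or BNST 3, and 2 without BNST 1). Over all genes 3.34% were higher and 6.91% lower. Sytl4, or granuphilin, which docks secretory granules, read 124, 132 and 106 in BNST, 15, 15.8 and 18.9 in NAc and 15, 15 and 15.5 in dStr (log2 difference 2.09, SE 0.11, adjusted p = 1.24e-05). All 6 striatal values lay at or near the floor, and the BNST values were well above it. Baiap3, which acts in dense-core vesicle traffic, read 1851, 1823 and 1925 in BNST, 459, 1106 and 1537 in NAc and 183, 138 and 126 in dStr (log2 difference 2.27, SE 0.30, adjusted p = 0.00128). Here the BNST arrays were closely matched and the NAc arrays widely spread, with NAc 3 nearest to BNST. Cadps2, a priming factor of vesicle release, averaged 436 ± 68.4 in BNST, 156 ± 72.7 in NAc and 89 ± 15.8 in dStr (log2 difference 1.79, SE 0.24, adjusted p = 0.00132). Ecel1, a neuronal peptidase relative, averaged 599 ± 113, 238 ± 41.1 and 304 ± 20.1 (log2 difference 1.10, SE 0.15, adjusted p = 0.00128). Resp18, a secretory granule gene outside the list, was among the 15 genes with the largest positive difference (2.5974, adjusted p = 0.0122), with NAc values of 67.7, 367 and 801, and lost its call without BNST 3 (adjusted p = 0.0641). The widely expressed members Chgb (0.06), Cpe (0.35) and Pcsk1 (0.02) did not pass.

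Among 28 measured neuropeptide receptor genes, 2 were higher in BNST and 0 lower, beside 3.34% and 6.91% over all genes, so that the count was near the background. At an unadjusted p under 0.05, 4 were higher and 3 lower, and in limma's fits without NAc 1 or NAc 3, 2 members were lower. The 2 higher genes were Adcyap1r1, the receptor of the peptide PACAP, at 1435 ± 112 in BNST, 1004 ± 105 in NAc and 502 ± 74.4 in dStr (log2 difference 1.00, SE 0.13, adjusted p = 0.00104), and the somatostatin receptor gene Sstr2, at 251 ± 33.8, 165 ± 2.15 and 115 ± 23.1 (log2 difference 0.79, SE 0.13, adjusted p = 0.00437). The BNST arrays lay above all 6 striatal arrays for both, but another kept probe set of Adcyap1r1 had the opposite sign. The receptors of corticotropin-releasing hormone and neurokinin B did not pass: Crhr1 differed by 0.10 (adjusted p = 0.833), Crhr2 by -0.07 (adjusted p = 0.82) and Tacr3 by -0.17 (adjusted p = 0.536). The opioid receptor gene Oprm1 read 1343, 897 and 816 in BNST, 953, 1789 and 2760 in NAc and 2174, 1893 and 3148 in dStr, and missed the threshold (-0.99, adjusted p = 0.0702).

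Of 14 measured genes of steroid receptors and steroid metabolism, 2 were higher and 0 lower, not far from the 10.3% called over all genes. At an unadjusted p under 0.05, 3 were higher and 3 lower, and in limma's fit without BNST 1, 1 was higher and 2 were lower. The 2 higher genes were Pgrmc1, a membrane-associated progesterone-binding protein (0.53, adjusted p = 0.0183), and Fkbp4, a chaperone of steroid receptors (0.51, adjusted p = 0.0261). Neither passed without BNST 2 or BNST 3, and Fkbp4 also failed without BNST 1 or any one of the dStr arrays (adjusted p up to 0.102 and 0.0994). Another kept probe set of Fkbp4 had the opposite sign. Esr1, the estrogen receptor known from BNST neurons, read 75.1, 80.8 and 70.5 in BNST, 54.8, 70.2 and 55.8 in NAc and 83.1, 74.6 and 62 in dStr, with overlapping regions (0.15, adjusted p = 0.492). All 9 values lay below the median of all probe sets on the arrays, 99.9.

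Transcription factors that pattern the forebrain went both ways in equal number. Of 40 measured, 7 were higher and 7 lower in BNST (3.34% and 6.91% over all genes), and the median was -0.03. Among the higher ones were 3 zinc finger genes of the Zic family. Zic1 read 2684, 2028 and 2395 in BNST, 184, 291 and 489.6 in NAc and 291, 317 and 332 in dStr (log2 difference 2.88, SE 0.24, adjusted p = 0.000136). Zic4 averaged 194 ± 18.9 in BNST, 59.5 ± 10.2 in NAc and 52.7 ± 9.89 in dStr (log2 difference 1.55, SE 0.14, adjusted p = 0.000184), and Zic5 averaged 261 ± 17.8, 119.6 ± 13.9 and 120.3 ± 14.4 (log2 difference 1.03, SE 0.12, adjusted p = 0.000654). For each of the 3 genes NAc and dStr stood at about the same level and BNST apart from both. Sp8, a zinc finger factor of olfactory bulb interneurons, read 117, 103 and 122 in BNST, 15, 16.5 and 22.1 in NAc and 15, 15 and 15 in dStr (log2 difference 2.00, SE 0.11, adjusted p = 1.43e-05), with all 3 dStr arrays at the floor. Dlx1, a homeobox gene of GABAergic lineages, read 384, 221 and 228 in BNST, 15, 50.1 and 121 in NAc and 15, 15 and 15 in dStr (log2 difference 2.66, SE 0.37, adjusted p = 0.0017), again with dStr at the floor. The other higher factors were Dlx2 (0.80, adjusted p = 0.0121) and Nfia (0.82, adjusted p = 0.00306). Related genes did not always pass together: Dlx5 (0.03), Dlx6 (-0.03) and Meis1 (0.27) did not pass. In these data Dlx1 was thus the one GABAergic marker of 5 measured that passed: Gad1 differed by -0.07 (adjusted p = 0.777), Gad2 by 0.17 (adjusted p = 0.526) and Slc32a1, the vesicular GABA transporter, by -0.14 (adjusted p = 0.738).

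The 7 lower factors were Foxp1, Foxp2, Bcl11b, Meis2, Bcl11a, Onecut2 and Tshz1. Foxp2, a forkhead factor, read 223, 101 and 134 in BNST, 464, 905 and 743 in NAc and 716, 657 and 746 in dStr (log2 difference -2.14, SE 0.24, adjusted p = 0.000579). Its relative Foxp1 averaged 403 ± 148 in BNST, 1103 ± 199.8 in NAc and 2614 ± 58.4 in dStr (log2 difference -2.09, SE 0.20, adjusted p = 0.000286). Foxp2 had nearly the same mean in both striatal regions (NAc minus dStr -0.05), whereas Foxp1 was lower in NAc than in dStr (-1.25, adjusted p = 0.0208). Bcl11b, or CTIP2, which directs the maturation of projection neurons, averaged 918 ± 340.4 in BNST, 2737 ± 806 in NAc and 3147 ± 426 in dStr (log2 difference -1.70, SE 0.24, adjusted p = 0.00173). Meis2 was bright in every region and lower in BNST (log2 difference -0.90, SE 0.17, adjusted p = 0.00833). Bcl11a differed by -0.71 (adjusted p = 0.00805), Onecut2 by -0.61 (adjusted p = 0.0216) and Tshz1 by -0.45 (adjusted p = 0.0299). Another kept probe set of Bcl11a had the opposite sign. The count of lower factors was 4 without BNST 2 and 4 without BNST 3. The factors Lhx6 (-0.18) and Lhx8 (-0.24) of interneurons and cholinergic neurons did not pass.

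Markers of extended amygdala neurons were higher in BNST for 7 of 9 measured (3.34% over all genes), and 0 were lower (median 1.45). Besides Tac2, Crh, Pnoc, Zic1 and Ecel1 these were Calb2 and Prkcd. Calb2, the calcium-binding protein calretinin, read 809, 1428 and 1529 in BNST, 101, 158 and 219 in NAc and 68.9, 76.1 and 45.5 in dStr (log2 difference 3.41, SE 0.26, adjusted p = 9.32e-05). Prkcd, protein kinase C delta, a marker of central extended amygdala neurons and also of thalamus, read 442, 444 and 546 in BNST, 212, 188 and 196 in NAc and 202, 211 and 191 in dStr (log2 difference 1.19, SE 0.11, adjusted p = 0.000274). The 7 genes kept their call in every fit that left out 1 array. Calb2 and Prkcd also stood on a list of markers of glutamatergic neurons of thalamus, septum and hypothalamus, of which 4 of 8 measured were higher and 0 lower, the others being Trpc4 and Slc17a6. Slc17a6, the vesicular glutamate transporter 2, read 144, 177 and 196 in BNST, 21.3, 36.2 and 59.8 in NAc and 19, 30 and 34.8 in dStr (log2 difference 1.97, SE 0.21, adjusted p = 0.000454). The summed level of the 8 genes ran from 3622 to 4658 on the BNST arrays and from 2469 to 3415 on the striatal arrays. Of the same list, Tcf7l2 (-0.31), Lef1 (0.16), Rora (-0.02) and Otp (-0.29) did not pass, and the part of neighbouring nuclei in the BNST values was not tested. Of 5 measured markers of cortical glutamatergic neurons 0 passed in limma, and 0 had an unadjusted p under 0.05.

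**Figure D2:**
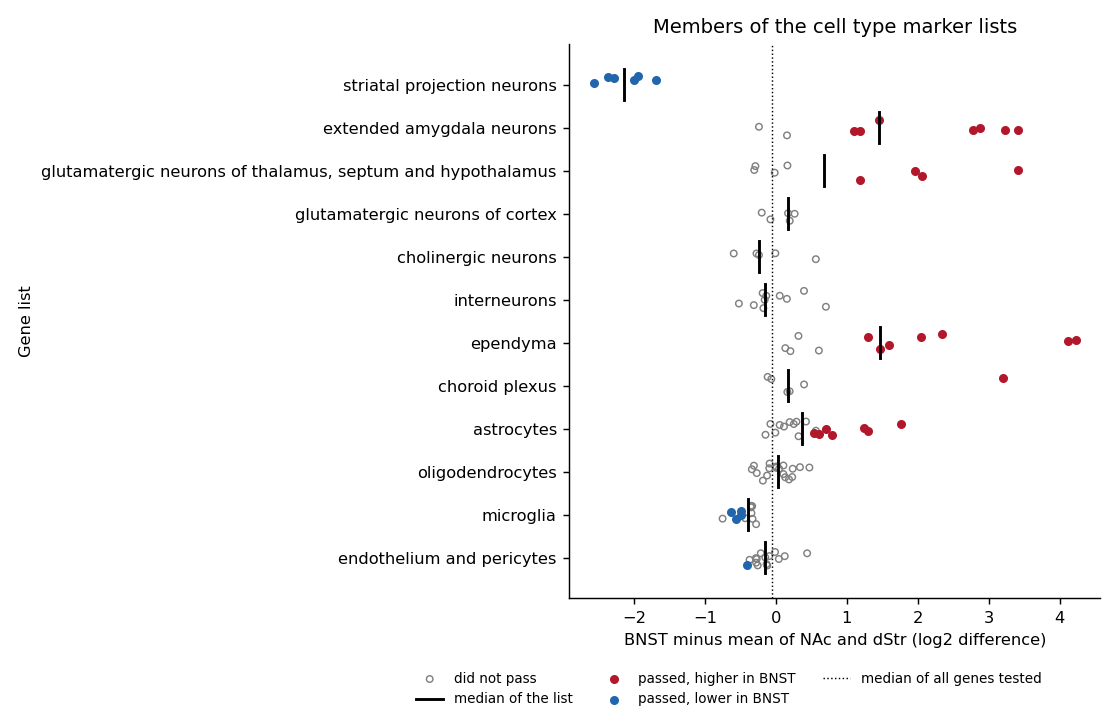
Log2 difference of every measured member of 12 cell type marker lists, drawn as for the functional lists. Striatal projection neuron markers (median -2.15) and microglial markers (median -0.40) lie to the left, ependymal (1.47) and extended amygdala markers (1.45) to the right, and oligodendrocyte markers (0.02) lie on both sides of 0.

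The 2 genes with the largest absolute difference among all 14208 tested, Tmem212 and Ccdc153, are markers of ciliated ependymal cells. Of 11 measured ependymal markers, 7 were higher in BNST (3.34% over all genes) and 0 lower (median 1.47). Tmem212, a membrane protein gene of multiciliated cells, read 561, 371 and 936 in BNST, 19.3, 15 and 15 in NAc and 15, 15 and 15 in dStr (log2 difference 4.24, SE 0.23, adjusted p = 1.24e-05). Ccdc153 read 644, 379 and 1201 in BNST, 16, 26.3 and 25.8 in NAc and 34.7, 24.4 and 15 in dStr (log2 difference 4.12, SE 0.30, adjusted p = 7.62e-05), and Enkur, a sperm and cilium protein gene, read 133, 112 and 196 in BNST, 15, 18.2 and 15.6 in NAc and 15, 15 and 15 in dStr (log2 difference 2.34, SE 0.15, adjusted p = 4.52e-05). For each of the 3 genes the striatal arrays lay at or near the floor and BNST 3 was the highest array, with BNST 2 the lowest of its region. Dynlrb2, a light chain of the dynein motor, had the same order among the BNST arrays (214, 131 and 309) and averaged 35.4 ± 6.59 in NAc and 41.1 ± 4.07 in dStr (log2 difference 2.04, SE 0.21, adjusted p = 0.000395). Fam183b, a cilium gene outside the list, was higher by 2.43 (adjusted p = 0.000273). The summed level of the 11 genes was 4435, 2950 and 5690 on BNST 1, 2 and 3 and ran from 1040 to 2017 on the striatal arrays. The part of ependyma at the ventricular wall in the other differences was not tested. The count was 7 without each BNST array in turn.

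Factors of the RFX family drive cilium genes through a site built on the letters GTTGCC, searched here on both strands. Promoter sequences of the ependymal genes with the largest differences are shown for this reason, as the 250 bases before the annotated start in RefSeq (GRCm38.p6), 5′ to 3′ along the gene's strand, with each match in capitals.
Tmem212 (chr3:27896369-27896618, minus strand): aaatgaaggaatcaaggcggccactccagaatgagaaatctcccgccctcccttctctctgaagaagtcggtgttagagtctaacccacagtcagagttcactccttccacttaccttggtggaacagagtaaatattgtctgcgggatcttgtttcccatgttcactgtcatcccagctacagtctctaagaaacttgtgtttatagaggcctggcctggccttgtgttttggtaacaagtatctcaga
Ccdc153 (chr9:44240427-44240676, plus strand): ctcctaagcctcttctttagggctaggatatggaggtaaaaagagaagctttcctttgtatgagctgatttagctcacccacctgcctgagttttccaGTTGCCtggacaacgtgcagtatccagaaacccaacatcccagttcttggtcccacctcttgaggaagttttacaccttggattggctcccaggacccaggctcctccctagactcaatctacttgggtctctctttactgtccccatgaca
Enkur (chr2:21205366-21205615, minus strand): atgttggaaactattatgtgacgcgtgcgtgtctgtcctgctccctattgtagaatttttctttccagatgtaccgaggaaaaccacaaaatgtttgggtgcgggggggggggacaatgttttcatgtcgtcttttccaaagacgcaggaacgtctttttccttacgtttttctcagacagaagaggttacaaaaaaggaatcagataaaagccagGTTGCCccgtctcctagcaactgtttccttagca
Fam183b (chr11:58801961-58802210, minus strand): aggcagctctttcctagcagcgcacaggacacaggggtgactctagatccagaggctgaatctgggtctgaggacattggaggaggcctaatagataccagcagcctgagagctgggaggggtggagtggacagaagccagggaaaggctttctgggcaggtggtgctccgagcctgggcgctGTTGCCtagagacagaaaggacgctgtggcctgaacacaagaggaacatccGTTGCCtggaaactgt
The match began 152 bases before the start in Ccdc153, 34 bases before it in Enkur, and 67 and 16 bases before it in Fam183b, while these letters were not in the Tmem212 window. Of 15 ependymal list members on the array, 12 had a promoter in the table and 5 of these held these letters on either strand, Ccdc153, Enkur, Dynlrb2, Tekt1 and Hydin. Over 27025 promoters of the same length, 10.5% held it. A match of 6 bases is a description of the sequence only.

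Otx2, a homeobox gene active in choroid plexus, was above the floor in BNST alone: it read 372, 209 and 249.7 on the BNST arrays, while all 6 striatal arrays were at the floor (log2 difference 3.20, SE 0.16, adjusted p = 1.24e-05). Its mean BNST intensity was 18.5 times the floor. The other 5 measured choroid plexus markers did not pass, and Ttr, the transthyretin gene that defines that tissue, read 621, 277 and 340.1 in BNST, 292, 276 and 304 in NAc and 271, 308 and 302 in dStr (0.40, adjusted p = 0.285), where BNST 1 was the one array that stood clear of the rest.

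Astrocyte markers were higher in BNST for 7 of 18 measured and lower for 0 (median 0.37, and 9 higher after quantile normalisation). The count of higher members was 5 without BNST 3 and 6 without NAc 2, dStr 1 or dStr 3. With the mean of the probe sets of a gene, 8 were higher and 1 lower. Over all genes 3.34% were higher and 6.91% lower. Gfap, the intermediate filament of fibrous and periventricular astrocytes, read 103, 175 and 206 in BNST, 38.2, 37.9 and 30.8 in NAc and 40.2, 38.4 and 24.4 in dStr (log2 difference 1.76, SE 0.20, adjusted p = 0.000508). Mlc1, a membrane protein of astrocyte endfeet, averaged 1022 ± 199 in BNST, 496 ± 104 in NAc and 331 ± 17.2 in dStr (log2 difference 1.29, SE 0.16, adjusted p = 0.000858). Agt, the angiotensin precursor, averaged 334 ± 50.5, 165 ± 62.1 and 107 ± 15.3 (log2 difference 1.25, SE 0.19, adjusted p = 0.00285). The gap junction genes Gjb6 and Gja1 were also higher (0.79 and 0.71; adjusted p = 0.0024 and 0.00699). All 3 BNST arrays lay above all 6 striatal arrays for these 5 genes, but the general astrocyte genes Aldh1l1 (0.32), Slc1a2 (0.19) and Glul (0.11) did not pass. The 18 markers summed to between 29170 and 32170 on the BNST arrays and between 21780 and 25790 on the striatal arrays.

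Microglial markers had the opposite sign. Of 12 measured, 4 were lower in BNST and 0 higher, and on the deposited scale all 12 had a negative difference (median -0.40, and -0.25 after quantile normalisation). Over all genes 6.91% were lower and 3.34% higher. Tmem119, a marker of resident microglia, read 113, 117 and 129 in BNST, 147, 174 and 159 in NAc and 179, 203 and 195 in dStr (log2 difference -0.49, SE 0.11, adjusted p = 0.0158). Its call was lost without BNST 2 (adjusted p = 0.0763). Of the 12 genes 0 passed in limma's fit that left out BNST 2, 1 passed with BNST 3 or dStr 3 left out, and 2 with NAc 2, dStr 1 or dStr 2 left out. Of 18 oligodendrocyte markers 0 passed in limma and 1 had an unadjusted p under 0.05, and Mbp, the myelin basic protein gene, read 6726, 7292 and 6789 in BNST, 6416, 6688 and 6883 in NAc and 7306, 6953 and 7282 in dStr. The markers of cholinergic neurons (0 of 5, and 2 at an unadjusted p under 0.05) and interneurons (0 of 10, and 2 at an unadjusted p under 0.05) did not pass either, and of 15 markers of endothelium and pericytes 1 was lower. Without NAc 1 or NAc 3, 1 cholinergic and 1 interneuron marker were higher. Without NAc 1, 1 marker each of cholinergic neurons, interneurons and oligodendrocytes was lower. The endothelial count was 1 without BNST 1 or NAc 1 and 0 without any other single array.

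**Figure D3:**
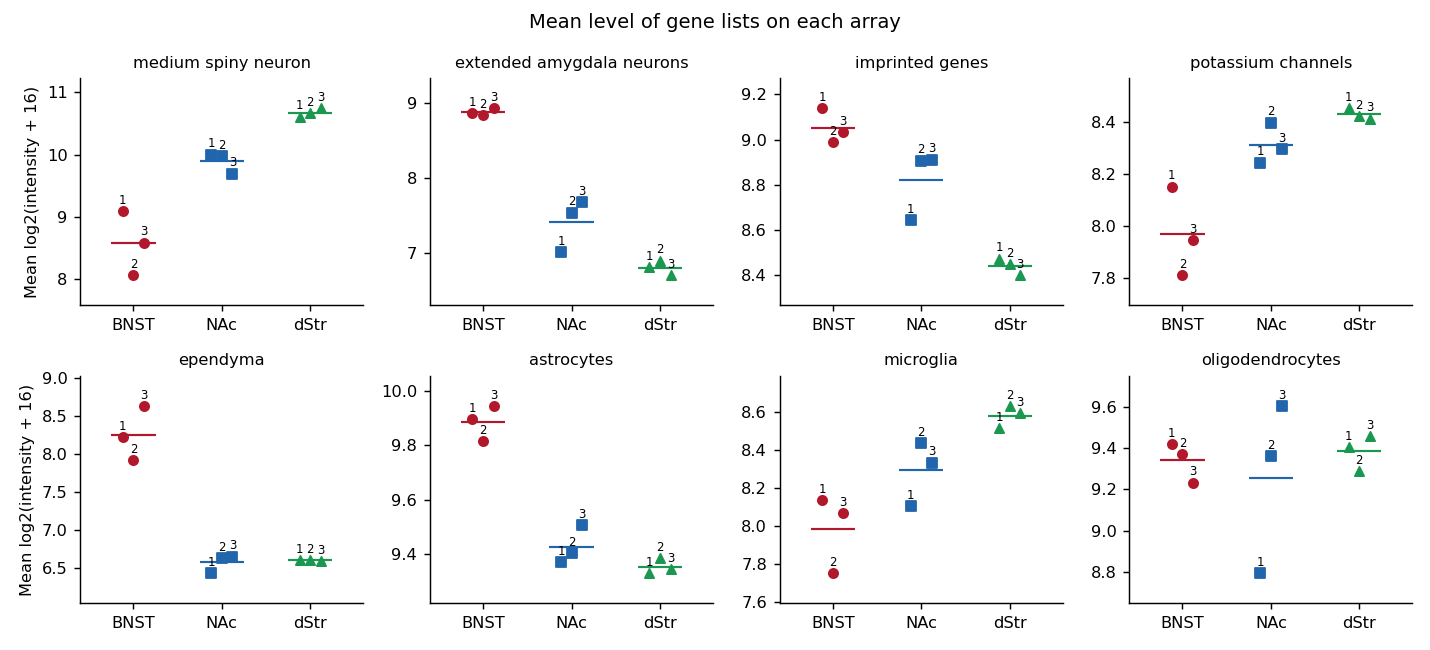
Mean log2(intensity + 16) of 8 gene lists on each array (numbers give the replicate, lines the mean of a region, and each panel has its own vertical axis). BNST 1 is the highest BNST array for medium spiny neuron genes (9.09, against 8.07 and 8.59), and the ependymal list lies between 7.91 and 8.63 on the BNST arrays and between 6.43 and 6.65 on the striatal arrays.

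Imprinted genes, which can be read from a single parental copy, leaned to the BNST side, more against dStr than against NAc. The arrays do not tell the parental copies apart. Of 38 measured, 14 were higher in BNST (3.34% over all genes) and 3 lower, and the median was 0.31 against -0.05 over all genes. Taken one region at a time, the median of the list was 0.096 for BNST minus NAc and 0.36 for BNST minus dStr. Asb4, a substrate adaptor of ubiquitin ligases known from hypothalamus, read 187, 226 and 215 in BNST, 15, 34.5 and 37.1 in NAc and 15, 22.4 and 16.2 in dStr (log2 difference 2.55, SE 0.18, adjusted p = 6.2e-05). Magel2, of the gene cluster deleted in Prader-Willi syndrome, read 519.6, 329 and 357 in BNST, 59, 133 and 115 in NAc and 48.2, 65.1 and 51.9 in dStr (log2 difference 2.19, SE 0.22, adjusted p = 0.000358). For both genes no striatal array came near the BNST arrays. Plagl1, a zinc finger growth regulator, averaged 1488 ± 241 in BNST, 526 ± 121 in NAc and 448 ± 53.1 in dStr (log2 difference 1.59, SE 0.17, adjusted p = 0.000424). Grb10, a signalling adaptor, averaged 1270 ± 130.5 in BNST, 779 ± 29.7 in NAc and 441 ± 24.5 in dStr (log2 difference 1.09, SE 0.11, adjusted p = 0.000328). Plagl1 and Grb10 each had another kept probe set of opposite sign. Ndn, a neighbour of Magel2, had values of 3387, 3334 and 3760 in BNST, 1774, 1905 and 2252 in NAc and 1332, 1705 and 1383 in dStr (log2 difference 1.03, SE 0.13, adjusted p = 0.000872). Dlk1, a Notch-family ligand, did not separate BNST from NAc: it read 696, 330.3 and 303 in BNST and 242, 728 and 597 in NAc, while dStr read 15, 17.6 and 15. Its difference was -0.19 against NAc (adjusted p = 0.926) and 3.75 against dStr (adjusted p = 0.000206). Between 11 and 16 members were higher in the fits that left out 1 BNST array, and 8 with the 6 striatal arrays as 1 group. The 3 lower members, Cobl (-0.99), Ppp1r9a (-0.90) and Mest (-0.57), were 1 without BNST 2 and 0 without BNST 3.

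Axon guidance genes went both ways in equal number. Of 53 measured, 10 were higher and 10 lower (3.34% and 6.91% over all genes), with a median of -0.02. Unc5d, a netrin receptor, read 786, 497 and 513 in BNST, 138, 368 and 366 in NAc and 71.5, 64.2 and 47.2 in dStr (log2 difference 2.03, SE 0.29, adjusted p = 0.00183), whereas the netrin receptor Dcc averaged 102 ± 17.1 in BNST, 283 ± 53.6 in NAc and 438 ± 72.6 in dStr (log2 difference -1.63, SE 0.16, adjusted p = 0.000297). Another kept probe set of Dcc had the opposite sign. Efna5, an ephrin ligand, read 486, 398 and 461 in BNST, 227, 219.6 and 225 in NAc and 206, 202 and 200.2 in dStr (log2 difference 1.01, SE 0.10, adjusted p = 0.000379), whereas Epha4, an ephrin receptor, averaged 379 ± 147, 793 ± 83.6 and 1126 ± 265 (log2 difference -1.33, SE 0.22, adjusted p = 0.00364). The semaphorin co-receptor Nrp1 was higher (0.88, adjusted p = 0.00285) and the slit receptor Robo2 lower (-1.19, adjusted p = 0.000978). BNST lay outside the striatal range on all arrays for each of these 6 genes. The count of higher members was 4 without BNST 3, 5 without dStr 1 and 6 without dStr 3, and that of lower members 6 without BNST 2.

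Immediate early genes, which neurons switch on with activity, were lower in BNST for 6 of 29 measured and higher for 0 (median -0.43). Over all genes 6.91% were lower and 3.34% higher. Homer1, a postsynaptic scaffold with an activity-induced form, read 545, 232 and 275 in BNST, 964, 886 and 692 in NAc and 1592, 1739 and 1667 in dStr (log2 difference -1.81, SE 0.23, adjusted p = 0.00104). Egr3 read 281, 137 and 207 in BNST, 516, 561 and 290.3 in NAc and 1047, 1175 and 1209 in dStr (log2 difference -1.74, SE 0.24, adjusted p = 0.00141), with BNST 1 nearly at the level of NAc 3. Fos (0.35, adjusted p = 0.763) and Arc (-0.88, adjusted p = 0.316) did not pass. The list's mean level was higher on each dStr array (8.30 to 8.82) than on each NAc array (7.89 to 8.10), and the BNST arrays spanned 7.43 to 8.13. The count was 2 without BNST 2, 2 without BNST 3 and 3 without dStr 1.

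At the median, NAc lay between BNST and dStr among the genes that passed. For the 475 genes called higher, the median absolute difference of BNST was 0.56 from NAc and 0.97 from dStr, and for the 982 called lower, 0.62 and 1.05. Placed on a line from dStr at 0% to BNST at 100%, the median NAc position was 40% for the higher and 38.4% for the lower genes. Taken one region at a time, 318 genes (2.24%) passed between BNST and NAc and 2027 (14.3%) between BNST and dStr, and 291 (2.05%) passed between the 2 striatal regions. These comparisons share arrays and are given side by side only. Of the 1457 genes, 1444 had the same sign against both regions, as did 77.3% of all genes tested. The call rests on the mean of these 2 differences, so that agreement in sign among called genes was largely set by the selection.

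**Figure D4:**
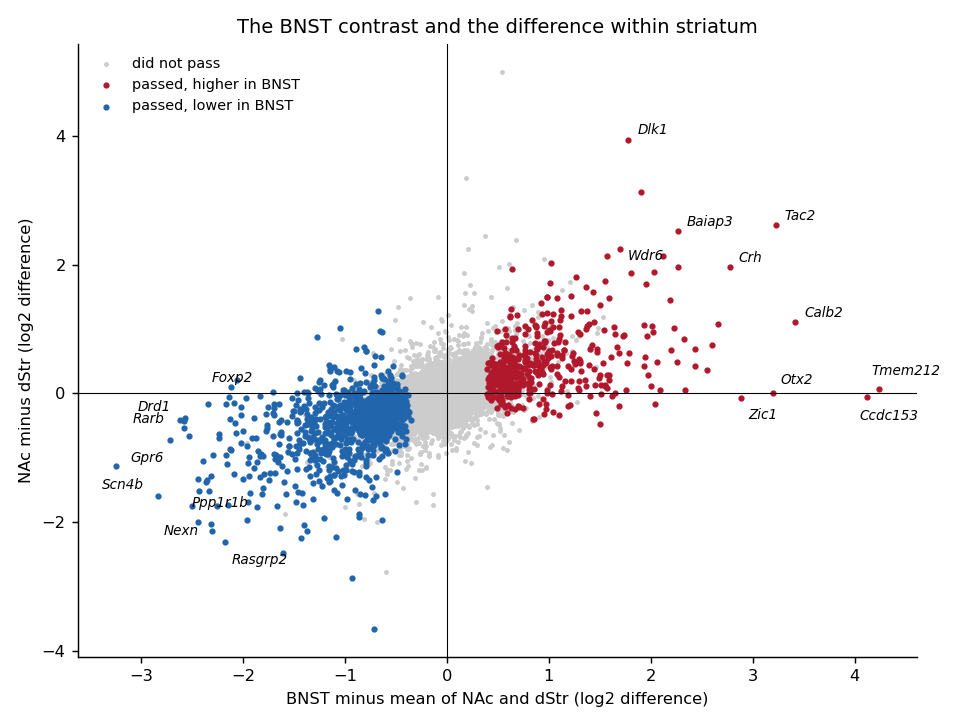
Log2 difference of BNST from striatum (horizontal) against the log2 difference of NAc from dStr (vertical) for 14208 genes, coloured where the BNST contrast passed. Genes such as Zic1 and Foxp2 lie on the horizontal line at 0, alike in both striatal regions. Tmem212 and Otx2 lie there with striatal values at or near the floor. Dlk1 (3.94) and Baiap3 (2.52) lie high above the line and Nexn (-2.04) far below.

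Some genes separated BNST from both striatal regions by similar amounts. On the high side, among genes with a difference of at least 2, the 5 with the closest NAc and dStr levels were Otx2 (NAc minus dStr 0.00, both at the floor), Ccdc153 (-0.06), Enkur (0.06), Sytl4 (0.06) and Tmem212 (0.06). Of these Sytl4 is the neuronal and endocrine one. All 5 genes, Sytl4 included, lay at or near the floor in both striatal regions, so that their small differences do not measure likeness of NAc and dStr. On the low side the 5 closest were Foxp2 (-0.05), Nell2 (0.10), Strip2 (-0.16), Prkch (-0.16) and Sptlc3 (-0.17). Nell2, a secreted neural protein gene, read 234, 148 and 96.8 in BNST, 421, 866 and 1069 in NAc and 644, 595 and 830.2 in dStr (log2 difference -2.12, SE 0.30, adjusted p = 0.00192). Prkch, protein kinase C eta, read 294, 102 and 170 in BNST, 838, 1052 and 807 in NAc and 894, 1090 and 1021 in dStr (log2 difference -2.34, SE 0.25, adjusted p = 0.000439). No BNST array reached a striatal one for either gene. Sptlc3, a subunit of the enzyme that starts sphingolipid synthesis, read 229, 41.8 and 15 on the BNST arrays, so that BNST 1 overlapped NAc 3 and dStr 3 (-2.17, adjusted p = 0.0286), and its call was lost without BNST 2, BNST 3, NAc 2, dStr 1 or dStr 2 (adjusted p up to 0.148).

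Among the remaining genes with the largest negative differences, Serpina9, a protease inhibitor gene, read 28.5, 15 and 15 in BNST, 264, 160.4 and 104 in NAc and 234, 238 and 208 in dStr (log2 difference -2.58, SE 0.23, adjusted p = 0.000223), with BNST 2 and BNST 3 at the floor. Lpl, lipoprotein lipase, averaged 108 ± 47.5 in BNST, 667 ± 472 in NAc and 829 ± 175 in dStr (log2 difference -2.58, SE 0.40, adjusted p = 0.00297), with a wide spread among the NAc arrays (1188, 546 and 267). Pcp4l1, a relative of a calmodulin-binding protein gene, averaged 247 ± 80, 1165 ± 134 and 1836 ± 97.9 (log2 difference -2.53, SE 0.18, adjusted p = 6.21e-05). Pou3f1, a POU homeobox factor, read 207, 69.8 and 109 in BNST, 341, 539 and 581 in NAc and 939, 863 and 1219 in dStr (log2 difference -2.40, SE 0.28, adjusted p = 0.000656). Among the remaining genes with the largest positive differences, Lbhd2 averaged 410.2 ± 122 in BNST, 82.7 ± 20 in NAc and 46.5 ± 19.7 in dStr (log2 difference 2.44, SE 0.25, adjusted p = 0.000363). Wdr6, a WD-repeat protein gene, read 2542, 2712 and 2943 in BNST, 699, 1043 and 1887 in NAc and 310.1, 240.1 and 271 in dStr (log2 difference 2.27, SE 0.25, adjusted p = 0.000479), so that all 3 regions were apart on every array.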

How the data were processed

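The authors deposited 1 table of probe-set intensities for 45037 probe sets and 9 arrays on a linear scale. How the values were summarised and scaled is not given in the sources used here. Between 2270 and 2698 probe sets per array stood at the common floor of 15. Of the probe sets, 34945 had 1 gene symbol in the annotation given, 932 several and 9160 none. A probe set was kept if 3 or more arrays exceeded the 40th percentile of that array, which left 29293, and the kept probe set with the highest mean stood for a gene (14208 genes, 5897 with several). limma 3.58.1 in R 4.3.3 fitted log2(intensity + 16) with a mean per region (6 residual degrees of freedom), tested BNST minus the mean of NAc and dStr with the empirical Bayes moderated test, 2-sided, and adjusted p by Benjamini-Hochberg over all genes at 0.05. The number of arrays limits the precision. On simulated data of 14208 genes, log2 changes of 1 and 2 were recovered in 78% and 99% of changed genes, with 5 false calls. The simulated noise was normal and independent between genes and arrays, and the changed genes were drawn from those above the median level. It held no differences between whole arrays, such as that of BNST 1, so these rates may not hold for the measured data.

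The comparison and the gene lists were chosen with earlier results of these data known. The 29 lists share genes and held 695 symbols, of which 550 were tested. The rule for named genes took the 15 largest differences per direction without overlap between groups and with a mean in the higher group above the median of all probe sets (99.9), up to 5 passing members per list and direction, the 10 per direction with the largest smaller difference from the 2 regions, and the 5 closest in NAc and dStr (133 genes, 61 with several kept probe sets, of which 10 had one of opposite sign: Adcyap1r1, Bcl11a, Dcc, Fkbp4, Grb10, Htr1b, Kcnc4, Kcnj3, Plagl1 and Plxnc1). Genes without an established name were skipped. Other list members were chosen after seeing their values. Tried as alternatives were scaling, filter, probe-set choice, prior, replicate block, pseudocount, each array left out, the striatum as 1 group, array weights and a housekeeping covariate. Counts per list under the fits without BNST 1 were added after the data were seen.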

Additional observations from a re-analysis of the deposited data

Results flagged for a closer look

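For 26 of the 133 named genes the difference of BNST from NAc and that from dStr were themselves different, which is the same as a passing difference between NAc and dStr (limma, adjusted p under 0.05). Over all 14208 genes, 291 (2.05%) passed between NAc and dStr. The named genes were chosen by their values on these same arrays, so that their count is no result about them as a set. The value given is NAc minus dStr on the log2 scale. Among genes higher in BNST than in the striatum as a whole, NAc was above dStr for Dlk1 (3.94), Tac2 (2.62), Baiap3 (2.52), Wdr6 (1.97), Crh (1.97), Unc5d (1.89), Plxnc1 (1.5049), Grin3a (1.24), Prkar2a (1.01), Adcyap1r1 (0.98), Nrp1 (0.90), Grb10 (0.80) and Kcnd3 (0.76). For Dlk1 the difference of BNST was -0.19 from NAc and 3.75 from dStr, and for Kcnd3 0.15 and 0.90.

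Among genes lower in BNST, NAc was below dStr for Plxnd1 (-2.15), Nexn (-2.04), Inf2 (-1.9967), Gprin3 (-1.75), Mme (-1.52), Egr3 (-1.35), Jcad (-1.35), Drd2 (-1.32), Rgs9 (-1.29), Foxp1 (-1.25), Klf10 (-1.20) and Cobl (-1.18). Plxnd1, a semaphorin receptor gene, read 41.4, 26 and 28.8 in BNST, 18.7, 70.4 and 51.5 in NAc and 286, 168 and 299.7 in dStr. The exception in direction was Pdyn, where NAc was above dStr (0.98) and BNST was at about the dStr level.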

How the results depend on the processing

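Of 133 named genes, 95 passed in every fit that left out 1 array, and 38 did not pass in 1 or more: 35 without BNST 3, 32 without BNST 2 and 8 without BNST 1. Of the named genes 35 failed under another alternative, 30 of them with the 6 striatal arrays as 1 group. The only change of sign was Kcnc4, at -0.26 with a pseudocount of 1, where another probe set stood for the gene. The count of 1457 genes (475 higher, 982 lower) ran from 646 to 2050 when single arrays were left out (221 to 588 higher, 392 to 1537 lower). With a log2 difference of at least 1 it was 497 (378 to 736 over those fits). It was 809 (254 and 555) with the striatum as 1 group, 3878 (898 and 2980) without BNST 1 and NAc 1, and 6231 (2279 and 3952) with array weights, which gave BNST 3 a weight of 6.24, BNST 1 0.365 and NAc 1 0.298. With a log2 difference of at least 1 the last 2 counts were 891 and 773. After quantile normalisation 827 genes were higher. The cause of these shifts was not tested. Under the other alternatives each of the 4 counts stayed within 1.5 times.

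Shared replicate numbers were tested as a pairing. Deviations of same-numbered arrays from their region means correlated at -0.51 to 0.26. With 3 arrays per region this cannot decide whether same-numbered samples came from the same animals. With the replicate block 1009 genes passed (333 and 676).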

Other observations

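Of 5470 kept probe sets that carry no symbol or several, 405 also passed between BNST and the striatum. Coch and Synpo2, singled out after their values were seen, were the 2 genes that passed with all BNST arrays above all NAc arrays and below all dStr arrays. Coch, the cochlin gene, read 124, 83.5 and 82.6 in BNST, 48.9, 29.7 and 29.1 in NAc and 612, 644 and 639.7 in dStr (log2 difference -0.71, SE 0.16, adjusted p = 0.0186). Synpo2, an actin-binding protein gene, read 64.2, 41.1 and 41.5 in BNST, 40.8, 34 and 16.4 in NAc and 328, 299 and 314 in dStr (log2 difference -0.93, SE 0.19, adjusted p = 0.0103). The calcitonin receptor gene Calcr read 160.2, 93.2 and 83.9 in BNST, 21.6, 236 and 228 in NAc and 15, 15.4 and 15 in dStr. Npy2r, the neuropeptide Y receptor 2, read 252, 168 and 172 in BNST, 51.3, 254 and 236 in NAc and 52.8, 25.9 and 26.8 in dStr. For both receptors NAc 1 was far below NAc 2 and NAc 3, which matched or exceeded BNST, and the contrast did not pass (0.95, adjusted p = 0.3, and 1.21, adjusted p = 0.0864).

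Gpr6 was the one medium spiny neuron gene of 29 with a promoter in the RefSeq table (GRCm38.p6) that held the full cyclic AMP response element TGACGTCA, which reads the same on both strands and occurs in 1.6% of 27025 promoters of 250 bases. Its window is shown because Gpr6 had the second largest negative difference among genes with an established name (-2.72). The match began 78 bases before the start.
Gpr6 (chr10:41072291-41072540, minus strand): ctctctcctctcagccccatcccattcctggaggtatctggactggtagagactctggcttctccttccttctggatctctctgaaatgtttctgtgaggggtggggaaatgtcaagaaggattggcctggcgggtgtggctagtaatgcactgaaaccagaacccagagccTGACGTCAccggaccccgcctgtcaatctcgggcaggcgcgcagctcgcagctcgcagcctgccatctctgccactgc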
